A study of Homo sapiens with 2 samples.

Results

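The microRNAs (miRNAs) miR-221 and miR-222 were examined in small-RNA libraries from stem-enriched subpopulations of 2 human breast cancer cell lines. The members are every mature miRNA that the deposited table assigns to the hairpins hsa-mir-221 and hsa-mir-222, which gave 4 of its 2121 rows: miR-221-3p, miR-222-3p, miR-221-5p and miR-222-5p. One library came from MDA-MB-468, a line that the labels give as ER-, PR- and HER2- (without oestrogen receptor, progesterone receptor or HER2), grown in DMEM. The other came from BT474, labelled ER+ and grown in RPMI-1640. Both media held fetal bovine serum, penicillin and streptomycin. Both lines were sorted by flow cytometry with the surface markers CD24 and CD44, with no other treatment in the labels, and unsorted cells were not analysed here. Line, medium and library therefore cannot be told apart. Each group held 1 library, so no difference has a replicate check or a p-value, and every interval is a 95% interval for counting error alone.

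miRNAs are cut from hairpin precursors, and each side of the hairpin, the 5p or the 3p arm, can give a mature strand that guides silencing of matching mRNAs. Pairing is led by the seed, bases 2 to 8 of the mature strand. miR-221 and miR-222 are processed from neighbouring hairpins and are known as repressors of ESR1, the gene of the oestrogen receptor (ER), and of CDKN1B, which encodes the cell-cycle inhibitor p27. In breast cancer they are described as more abundant in ER-negative than in ER-positive cells.

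RefSeq lists mature sequences for 3 of the 4 members, shown here 5′ to 3′ with the seed in capitals because the seed defines what the members have in common.
miR-221-3p: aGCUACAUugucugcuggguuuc
miR-222-3p: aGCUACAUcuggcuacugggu
miR-222-5p: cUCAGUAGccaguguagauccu
The 3p arms, of 23 and 21 nt, were identical over their first 8 bases and then diverged, with 18 identical bases in an alignment of 24. Of 2370 mature human miRNAs in the RefSeq table, only these 2 (0.0844%) had the seed GCUACAU. miR-187-5p shared bases 2 to 7 and was not listed in either library. The seed of miR-222-5p was found in no other entry.

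Both hairpins lie on the short arm of chromosome X, on the minus strand, in GRCh38.p14. MIR221 is at chrX:45746157-45746266 and MIR222 at chrX:45747015-45747124, with 748 bases between them. In GENCODE 29 both fall in an intron of the long transcript of the non-coding gene MIR222HG, and in RefSeq MIR222HG starts 23143 bases upstream of MIR222. The hairpins are shown with the 3p arm in capitals.
MIR221: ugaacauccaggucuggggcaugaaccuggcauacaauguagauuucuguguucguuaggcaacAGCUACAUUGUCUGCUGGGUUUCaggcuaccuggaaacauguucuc
MIR222: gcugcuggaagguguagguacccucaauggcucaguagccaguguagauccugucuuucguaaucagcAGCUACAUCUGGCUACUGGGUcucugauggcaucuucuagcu
Each hairpin is 110 bases long, and 74 bases were identical in an alignment of 122 (60.7%). None of the 4 members is listed on a further hairpin in the deposited table.

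The match to the shared seed was located in the 3′ untranslated regions of the known targets, since these letters link the members to ESR1 and CDKN1B. The motif ATGTAGC, the reverse complement of the seed, was searched on the transcript strand of the longest 3′ untranslated region of each gene in GENCODE 29 (GRCh38), and is in capitals below.
CDKN1B, chr12:12721213-12721235, plus strand: ctctaaaagcgttggATGTAGCa
CDKN1B, chr12:12721286-12721308, plus strand: tagtttttaccttttATGTAGCa
ESR1, chr6:152101204-152101226, plus strand: atgacagacaatcttATGTAGCa
CDKN1B held 2 matches in 1344 bases. Of 8266 genes with a region at least as long, read over the same length, 6.45% held a match and 0.278% held 2 or more. ESR1 held 1 match in 4308 bases, where 20.4% of 1755 genes held at least 1. Each match was followed by an A, the base opposite position 1 of the miRNA in the form of site known to be most effective. A match describes the letters only, and mRNA levels were not analysed here.

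Annotated miRNAs summed to 5133057 counts in the BT474 library and to 11448022 in that of MDA-MB-468, and levels are given in counts-per-million (CPM) of these totals. Of 1623 annotated mature miRNAs, 690 had at least 10 counts in a library and are called eligible below, including all 4 members. The 4 epithelial markers were listed in both, with a summed level of 30381 CPM in BT474 and 26793 CPM in MDA-MB-468, but they did not go the same way. miR-205-5p, a marker of basal epithelium, was at 61.6 CPM in BT474 and 14367 CPM in MDA-MB-468, while miR-200c-3p, miR-141-3p and miR-203a-3p were 2.55-fold, 2.82-fold and 1.80-fold higher in BT474. The 4 markers of fibroblasts and smooth muscle summed to 177 and 371 CPM, in the same order, and the 6 blood markers to 47.7 and 26.8 CPM, with miR-214-3p and miR-144-3p not listed in MDA-MB-468. Endothelial cells are also known for high miR-221 and miR-222. Their 2 markers, both arms of miR-126, summed to 678 CPM in BT474 and 214 CPM in MDA-MB-468. The part of other cell types in the members' levels was not tested.

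The 3p arms, the strands that carry the shared seed, made up most of the signal. They held 125729 of 135120 counts of both hairpins in MDA-MB-468 and 1871 of 1959 in BT474. miR-222-3p was counted 66442 times in the MDA-MB-468 library, or 5804 CPM (interval 5759.8 to 5848), and 969 times in the BT474 library, or 189 CPM (177 to 201). miR-221-3p was counted 59287 times in the former, or 5179 CPM (5137 to 5221), and 902 times in the latter, or 176 CPM (164 to 188). Both strands were thus high in the triple-negative library and far lower, but well above the smallest listed count of 2, in the ER-positive one. In bulk RNA of the sorted cells, fewer cells carrying a miRNA and less of it per cell cannot be told apart. miR-222-3p was 30.7-fold higher in MDA-MB-468 (interval 28.9 to 32.8, log2 4.94) and miR-221-3p 29.5-fold higher (27.6 to 31.5, log2 4.88). The fold of miR-222-3p was 1.04 times that of miR-221-3p (0.951 to 1.14), which is no detectable difference between them at this depth.

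The 5p arms, the minor strands of these hairpins, had the same direction at lower levels. miR-221-5p was counted 9110 times in the MDA-MB-468 library, or 796 CPM (779.5 to 812), and 88 times in the BT474 library, or 17.1 CPM (13.7 to 21.1), a 46.4-fold difference (37.6 to 57.9, log2 5.54). miR-222-5p had 281 counts in MDA-MB-468, 24.5 CPM (21.8 to 27.6), and was not listed in BT474. With that blank set at a floor of 3 counts over the library, 0.584 CPM, its level was at least 42.0-fold higher in MDA-MB-468 (log2 5.39), a figure that takes the blank as 0 counts and leaves out counting error in the 281. The smallest count listed anywhere is 2, so the blank may stand for 0 or 1 count. The lower limit of the interval was 33.9-fold with 0 counts and 22.4-fold with 1.

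**Figure D1:**
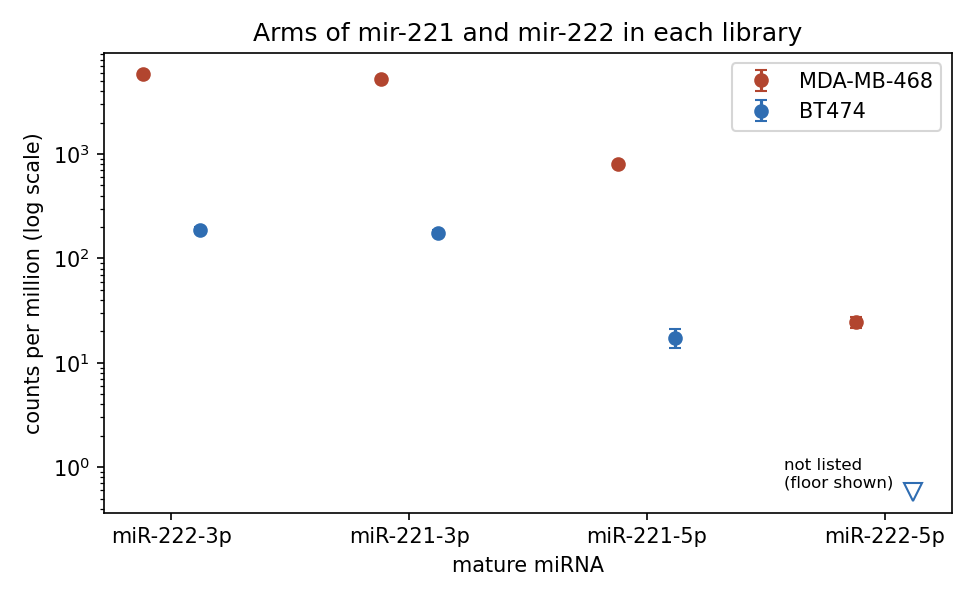
Level of each mature arm of mir-221 and mir-222 in counts-per-million (log axis), 1 point per library with its 95% Poisson interval; the open triangle marks the floor of 3 counts for miR-222-5p, which was not listed in BT474. Every arm sits higher in MDA-MB-468, from 5804 CPM for miR-222-3p to 24.5 CPM for miR-222-5p, against 189 CPM and a blank in BT474.

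Within a library the members had the same order. In MDA-MB-468 miR-222-3p stood above miR-221-3p, and their intervals did not overlap; miR-221-5p and then miR-222-5p followed, each far outside the interval of its neighbour. In BT474 the intervals of miR-222-3p and miR-221-3p overlapped, so these neighbours did not differ beyond counting error, while miR-221-5p was clearly lower. Counts are of sequenced tags and are not scaled by length. Among all annotated miRNAs of MDA-MB-468, miR-222-3p ranked 27th, miR-221-3p 29th, miR-221-5p 76th and miR-222-5p 240th by count. In BT474 the first 3 of these ranked 120th, 124th and 270th.

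Taken by hairpin, with both arms added, mir-221 gave 68397 counts in the MDA-MB-468 library against 990 in the BT474 library, and mir-222 gave 66723 against 969. The hairpins together held 1.18% of the MDA-MB-468 library (Clopper-Pearson interval 1.17 to 1.19) and 0.0382% of the BT474 library (0.0365 to 0.0399). The fold was 31.0 for mir-221 (29.1 to 33.0) and 30.9 for mir-222 (28.98 to 32.9). The neighbouring hairpins were therefore higher by nearly the same factor, with overlapping intervals.

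The proportion of the members to each other does not depend on scaling. miR-221-3p made up 47.2% of the counts of both 3p arms in MDA-MB-468 (46.9 to 47.4) and 48.2% in BT474 (45.9 to 50.5). The intervals overlap, so a change in the balance of the 3p arms was not detectable at this depth, although their summed level differed 30.1-fold (28.8 to 31.6).

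The balance of arms within a hairpin differed for mir-221. The 5p arm made up 13.3% of mir-221 counts in MDA-MB-468 (13.1 to 13.6) and 8.89% in BT474 (7.19 to 10.8). Put differently, each count of miR-221-5p went with 10.2 counts of miR-221-3p in BT474 and with 6.51 in MDA-MB-468. The fold of the 5p arm was 1.57 times that of the 3p arm (1.26 to 1.99). Such a difference was common: of 125 hairpins with at least 100 counts in each library and arms listed on 1 hairpin, 61 (48.8%) had intervals that did not overlap, with a blank taken as 0. mir-221, with a difference of 4.43 percentage points, ranked 33rd of the 125 by the size of the difference, and the median difference was 0.701 points. The BT474 value rests on 88 counts.

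The hairpin mir-222 was almost entirely 3p. Its 5p arm made up 0.421% of mir-222 counts in MDA-MB-468 (0.373 to 0.473), or 1 count for each 236 counts of miR-222-3p. At that proportion the 969 counts of miR-222-3p in BT474 would go with 4.10 counts of miR-222-5p, close to the smallest listed count. A lower 5p share of mir-222 in BT474 could thus not be seen at this depth. The neighbouring hairpins differed from each other in this respect in MDA-MB-468, where the 5p share of mir-221 was over 13% and that of mir-222 under 0.5%.

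**Figure D2:**
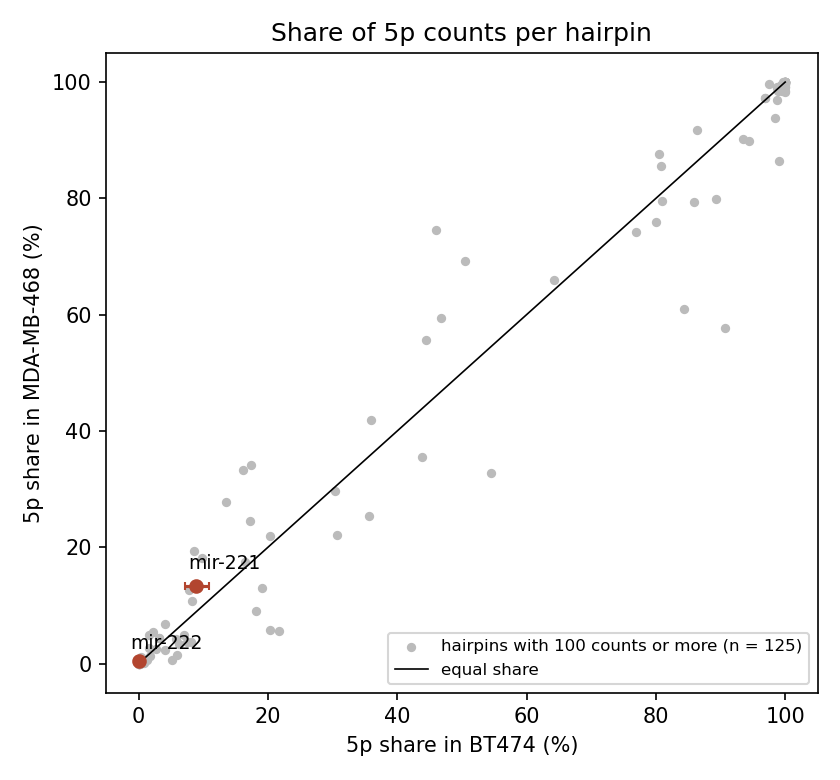
Share of 5p counts per hairpin in BT474 (x axis, %) and MDA-MB-468 (y axis, %) for 125 hairpins, with mir-221 and mir-222 in red; bars on these are 95% Clopper-Pearson intervals, with none on the x axis for mir-222, whose 5p arm was not listed in BT474 and is drawn at 0. mir-221 lies above the line of equal share (13.3% against 8.89%), and mir-222 lies at the origin end with 0.421% in MDA-MB-468.

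The members were then placed among all eligible miRNAs. Of these, 244 of 690 (35.4%) were at least 2-fold higher in MDA-MB-468, 197 (28.6%) were at least 2-fold higher in BT474, and 32 (4.64%) were at least 16-fold higher in MDA-MB-468. All 4 members were among the 32, but as arms of neighbouring hairpins they are not independent. miR-222-5p was eligible through MDA-MB-468 alone. The median log2 ratio over all 690 was 0.30. By ratio miR-221-5p ranked 13th, miR-222-5p 15th with its blank at the floor, miR-222-3p 23rd and miR-221-3p 24th. Of 185 more abundant miRNAs, those reaching 100 CPM in a library, 17 (9.19%) were at least 16-fold higher in MDA-MB-468, and 3 of them were members, which ranked 11th, 15th and 16th of the 185.

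**Figure D3:**
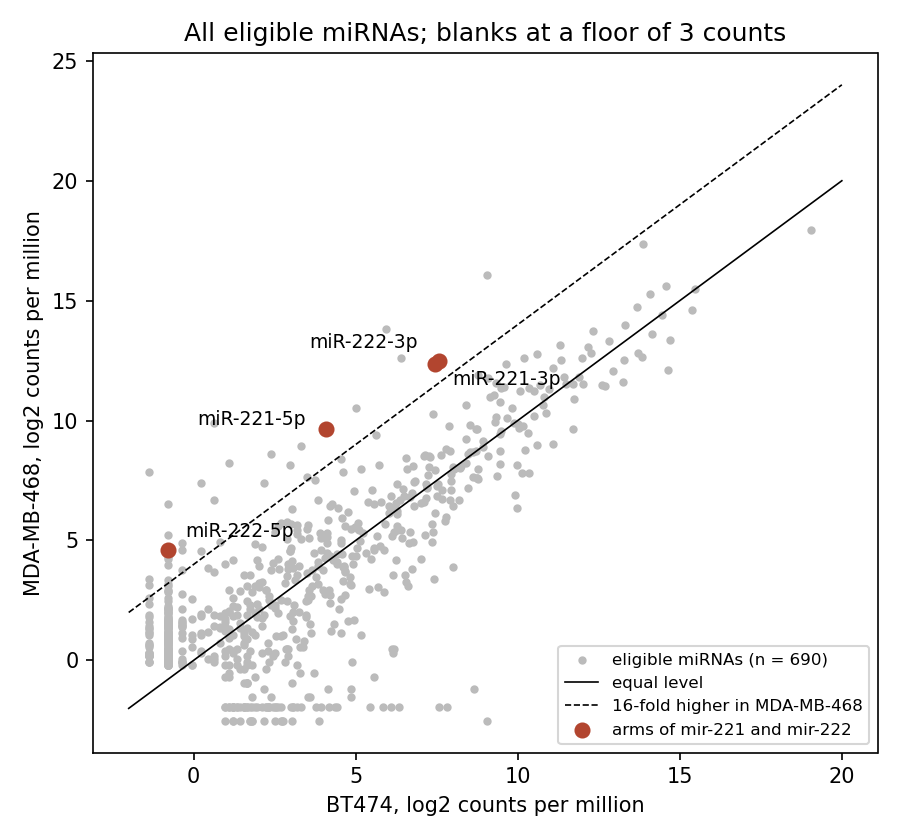
Level of 690 eligible miRNAs in BT474 (x axis) and MDA-MB-468 (y axis) as log2 CPM, with blanks at a floor of 3 counts per library; points just left of or below the rows of blanks are miRNAs listed with 2 counts. The 4 arms of mir-221 and mir-222, in red, all lie above the dashed line of a 16-fold difference.

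The counts of the members in BT474 were also set beside those of other miRNAs abundant in MDA-MB-468. Of 88 miRNAs chosen for at least 5000 counts in MDA-MB-468, miR-934 had the lowest, with 8 BT474 counts for 10860 in MDA-MB-468 (0.0737%). The BT474 counts came to 1.52% of the MDA-MB-468 counts for miR-221-3p, 1.46% for miR-222-3p and 0.966% for miR-221-5p. These are raw counts, and depth alone gives 2.23 counts in MDA-MB-468 per count in BT474. The choice by MDA-MB-468 counts favours low percentages, so they restate the folds above and add no separate support.

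miRNAs with a pattern most like that of miR-221-3p were chosen by the distance of log2 CPM over the 2 libraries. The nearest was miR-222-3p, at a distance of 0.19. The next were miR-30a-3p at 1.10, with 84.0 CPM in BT474 and 6199 CPM in MDA-MB-468, and miR-30e-5p at 1.40, with 442 and 3829 CPM. miR-17-5p at 1.71 (539 and 3489 CPM) and miR-378i at 1.95 (341 and 1597 CPM) completed the 5. With 2 libraries this likeness describes level and ratio only.

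Other hairpins of the short arm of chromosome X gave the chromosomal setting. RefSeq positions placed 21 further annotated hairpins there, with 34 mature miRNAs listed on no hairpin elsewhere. Of these, 22 were eligible, 15 were at least 2-fold higher in MDA-MB-468, none was at least 2-fold higher in BT474 and 7 were neither, beside 35.4% and 28.6% of all eligible miRNAs. Their median log2 ratio was 1.67, beside 0.30 over all eligible miRNAs, and they ranged from -0.15 to 3.28. None reached 16-fold, so all lay below the 4 members. The 4 most abundant were miR-532-5p (644 CPM in BT474 and 3022 CPM in MDA-MB-468, log2 2.23), miR-98-5p, a relative of let-7 (1803 and 2035 CPM, 0.17), miR-500a-3p (96.2 and 251 CPM, 1.38) and miR-660-5p (36.0 and 255 CPM, 2.82). Of the 22, 15 come from 1 cluster of hairpins in CLCN5 and are not independent; they include 11 of the 15 that were at least 2-fold higher, so the count rests largely on 1 locus. The other 7 had 4 at least 2-fold higher and a median of 1.65. Some of the 22 were eligible through the deeper MDA-MB-468 library alone, which favours higher ratios there. Of those at least 2-fold higher, these were miR-362-3p, miR-500a-5p, miR-500b-3p, miR-500b-5p, miR-502-5p and miR-6857-3p. Among them, miR-500b-5p had 14 counts against a blank, just above 2-fold with the floor (log2 1.07). miR-6857-3p had 14 against 2 (log2 interval -0.47 to 4.83). miR-660-3p, with 11 against a blank, was under 2-fold, while miR-500a-5p had 149 against 8 (2.05 to 4.30). The count of 15 at least 2-fold higher thus rests partly on low counts. It was 14 with MDA-MB-468 thinned to the depth of BT474. The thinned count kept the miRNAs eligible at full depth, so it cannot check the effect of the filter. With the authors' normalized values the count was 11.

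Lists of other miRNAs described as repressing ESR1 and CDKN1B were chosen with earlier results of these data known. Those for ESR1 were set beside the members first. Of 8, 7 were eligible, 5 were at least 2-fold higher in MDA-MB-468 and 1 was at least 2-fold higher in BT474, with a median log2 ratio of 2.71, beside 35.4%, 28.6% and 0.30 over all eligible miRNAs. miR-20b-5p, of the miR-106a/363 cluster on chromosome X, was 36.2-fold higher in MDA-MB-468 (282 against 7.79 CPM, log2 5.18, 4.73 to 5.67). miR-18a-5p (log2 2.71), miR-19a-3p (3.06) and miR-19b-3p (2.86) were higher as well, and miR-18b-5p, eligible through MDA-MB-468 alone, had 22 counts against a blank. These 5 belong to the related miR-17/92a and miR-106a/363 clusters and are not independent of one another. The eligible members outside these clusters, miR-22-3p and miR-193b-3p, were both higher in BT474. miR-22-3p went the other way, with 695 CPM in BT474 and 288 CPM in MDA-MB-468, 2.42-fold higher in the former (log2 -1.27, interval -1.34 to -1.20). miR-193b-3p reached 203 CPM in BT474 and 137 CPM in MDA-MB-468, under 2-fold, and miR-206 had 3 counts in MDA-MB-468 and none listed in BT474. In MDA-MB-468 the 8 summed to 918 CPM and in BT474 to 935 CPM, while the 3p arms of the members summed to 10983 CPM and 364.5 CPM. The members outweighed the other ESR1 repressors in the triple-negative library and were outweighed by them in the ER-positive one.

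Of the 4 other miRNAs described as repressing CDKN1B, 2 were at least 2-fold higher in MDA-MB-468 and none in BT474, with a median log2 ratio of 2.05; over all eligible miRNAs the shares were 35.4% and 28.6% and the median 0.30, and with 4 members a count of 2 is little above that share. miR-148a-3p, which is also known to repress the DNA methyltransferase DNMT1, had a log2 ratio of 3.51 (3.50 to 3.52), and miR-196a-5p, transcribed from HOX clusters, stood at 234 CPM against 24.5 CPM in BT474 (log2 3.26, 3.00 to 3.52). miR-24-3p (2373 against 1452 CPM, log2 0.71) and miR-181a-5p (610 against 342 CPM, log2 0.84) were under 2-fold. The 4 summed to 173457 CPM in MDA-MB-468 and to 16809 CPM in BT474, nearly all of it miR-148a-3p, so they outweighed the 3p arms of the members in both libraries. At the level of single members of either list, only miR-20b-5p lay within the range of the 4 members, 4.88 to 5.54 on the log2 scale.

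**Figure D4:**
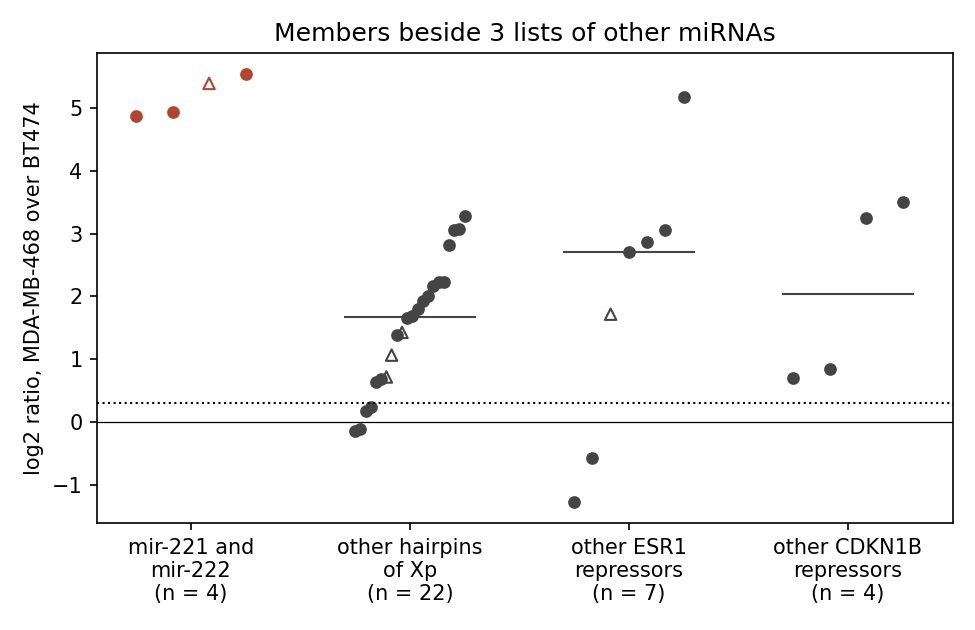
Log2 ratio of MDA-MB-468 over BT474 for the 4 members, 22 other miRNAs of the short arm of chromosome X (Xp), 7 other ESR1 repressors and 4 other CDKN1B repressors; open triangles were not listed in BT474 and set at 3 counts, short lines are list medians and the dotted line is the median of all eligible miRNAs (0.30). The members lie between 4.88 and 5.54, above all the Xp miRNAs, whose highest value is 3.28.

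The start of the host gene is shown because both hairpins lie downstream of it. Its part in the difference between the libraries was not tested. The 300 bases around the RefSeq start of MIR222HG, 250 before and 50 after, are on the minus strand of GRCh38.p14, with matches to a CCAAT box in capitals.
MIR222HG, chrX:45770218-45770517: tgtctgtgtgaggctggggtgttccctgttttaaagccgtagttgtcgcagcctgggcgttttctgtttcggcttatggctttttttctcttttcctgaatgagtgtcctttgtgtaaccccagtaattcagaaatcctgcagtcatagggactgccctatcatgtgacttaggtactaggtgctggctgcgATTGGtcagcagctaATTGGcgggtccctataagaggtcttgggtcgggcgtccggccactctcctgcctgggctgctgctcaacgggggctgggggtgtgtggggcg
On both strands, CCAAT was found 2 times, and 34.6% of 35116 RefSeq promoters of the same length held at least 1 match and 10.8% held 2 or more. The AP-1 site TGANTCA and the E-box form CACGTG had no match in this window, and 7.71% and 7.26% of promoters held at least 1. Other forms of the E-box were not searched. The matches do not overlap one another, and the MIR222HG transcript and binding at this start were not analysed here.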

How the data were processed

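Small RNAs of 15 to 35 nt were sequenced for 51 cycles on an Illumina HiSeq, per the labels' protocols. The authors deposited raw tag counts, in which all isoforms of a mature miRNA are added per hairpin, per the file headers, and a normalized version rounded to whole numbers, treated here as a score; the scaling behind it is not described. The submitters' processing notes name Novoalign 2.07.11; for build and annotation release, the sources used here give nothing. The smallest listed count was 2, and other cells were blank. The header spelling MAD-MB-468 was taken for the MDA-MB-468 sample.

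The 384 predicted hairpin candidates were left out. Of the 1737 annotated rows, the largest count was kept for a name on several hairpins, and miR-199a-3p and miR-199b-3p, equal throughout, were merged. Ratios are of CPM, MDA-MB-468 over BT474, with exact conditional binomial (Clopper-Pearson) intervals; shares have Clopper-Pearson and CPM exact Poisson intervals (scipy 1.17.1, Python 3.11.15). Since PCR copies cannot be told from separate molecules here, intervals and the floor cover counting error alone. With 1 library per group no test was made. Alternatives used other scalings (edgeR 4.0.16 TMM, DESeq2 1.42.0 size factors), the authors' score, thinning, count minimums and the value of a blank.

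Hairpins were matched to RefSeq by symbol (1061 of 1087), with the short arm of chromosome X taken as positions below 60000000. Named miRNAs are the members, the 5 nearest in pattern, the 4 most abundant of the short arm of X, and lists of ESR1 and CDKN1B repressors and cell type markers; miR-934 and miR-187-5p were named after their values were seen. Members and lists were chosen with earlier results of these data known.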

Additional observations from a re-analysis of the deposited data

How the results depend on the processing

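All 4 members kept their direction and a ratio of at least 16-fold under each of 7 alternatives, with ranges of 22.9 to 32.9-fold for miR-221-3p, 23.9 to 34.3 for miR-222-3p, 36.1 to 62.6 for miR-221-5p and 20 to 126 for miR-222-5p. Leaving the 10 most abundant miRNAs out of each total moved the median of all eligible miRNAs by -0.36 and gave log2 ratios of 4.52 (miR-221-3p), 4.58 (miR-222-3p), 5.18 (miR-221-5p) and 5.03 (miR-222-5p). DESeq2 size factors moved that median by 0.16 and gave 5.04 for miR-221-3p and 5.10 for miR-222-3p. The authors' normalized values gave 5.00, 5.06 and 5.97 for miR-221-3p, miR-222-3p and miR-221-5p, and 4.32 for miR-222-5p, whose blank was set at the smallest listed value, 1. With that blank at 1 count in the raw table miR-222-5p was 126-fold higher. The other members have no blank, so this alternative could not change them. In the authors' values the 5p share of mir-221 in BT474 was 7.14%, resting on a score of 11 (8 counts per unit, against 6.31 for miR-221-3p). The cause of the difference in the authors' values was not tested. With MDA-MB-468 thinned to the depth of BT474 the 5p share of mir-222 in MDA-MB-468 was 0.362%. Thinning is a random draw from the same counts, so that value differs from 0.421% only through the draw. Requiring at least 50 counts left 146 miRNAs at least 2-fold higher in MDA-MB-468, since fewer were eligible, and the count of those at least 16-fold higher stayed between 27 and 36 under all alternatives run. Alternatives added after seeing the data gave 11 to 15 of the 22 miRNAs of the short arm of X at least 2-fold higher, 4 or 5 of the ESR1 list and 2 of the CDKN1B list. No paired analysis was possible because each group held 1 library. Depth limits the 5p arms: miR-222-5p rests on 281 counts against a blank.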
